A study of Drosophila melanogaster with 6 samples.

Results

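The 10 genes described here are 7 genes used as markers of haemocytes, the blood cells of the fly, and 3 genes of the basement membrane, the sheet of matrix that lies under the disc epithelium. They were chosen by gene symbol (Hml, NimC1, eater, Pxn, Sr-CI, crq and He for haemocytes, vkg, Col4a1 and SPARC for the basement membrane), out of 17471 genes counted, and all 10 had enough counts to be tested. Most larval haemocytes are plasmatocytes, phagocytes that carry scavenger and Nimrod receptors on their surface, and some of them are attached to imaginal discs. Type IV collagen, a trimer of chains encoded by vkg and Col4a1, is made mainly by the larval fat body and by haemocytes, is carried in the haemolymph and is built into the matrix of the wing disc. SPARC is a calcium-binding glycoprotein that assists the secretion and deposition of that collagen.

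RNA-seq was carried out on wing discs dissected at the wandering stage of the third larval instar from females, with 30 discs per sample, in 3 wild-type samples of the inbred w1118 stock and 3 samples homozygous for dLsd1ΔN, a null deletion of the gene of a histone demethylase. The deletion was made by recombination between piggyBac insertions and is 1 allele in 1 stock, kept over a balancer chromosome and compared with a separate wild-type stock, so that genotype and genetic background cannot be told apart. The labels do not tie each sample to a separate culture, and the p-values therefore measure the spread between these samples. Polyadenylated RNA was made into stranded libraries, which were sequenced on a single lane.

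The shallowest library, wild-type replicate 2, held 13960866 counts and the deepest 45909324. dLsd1 itself had 2136, 676 and 2564 counts in wild-type samples but 7, 6 and 1 in the mutant. The wing disc genes nub, vg, ap and sd were high in every library. Wild-type replicate 3 stood apart, with 9413 normalized counts of hth, a gene of the disc hinge and notum, against 1313 to 3234 in the other libraries, and with the lowest summed count of fat body markers. Without it, 1588 genes were called between the genotypes instead of 710, and the calls that change without it are named beside the results. Normalized counts are counts scaled to the mean library size with TMM factors. A gene was called where its log2 fold change, mutant over wild-type, was beyond 0.6 in either direction and its adjusted p-value was below 0.1 in edgeR's quasi-likelihood test, with the Benjamini-Hochberg correction taken across every gene and TE family in the fit. By this rule 6.55% of 10841 genes were called, 4.32% as higher and 2.23% as lower in the mutant.

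To compare the 10 genes with each other, raw counts were divided by the library size after TMM scaling and by exon length in kilobases (RPKM). This level per length is used here for any statement between genes. SPARC was the highest of them, with a mean of 43.8 in wild-type discs, above 81.2% of the genes tested. It was followed by crq at 13.3, Col4a1 at 12.9 and vkg at 9.08, whose ranges over the 3 wild-type libraries overlapped from one gene to the next. A clear gap separated these 4 genes from the rest.

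He had a mean level per length of 2.58 in wild-type discs and Pxn one of 1.85, and their ranges overlapped. NimC1 (0.646), eater (0.634), Sr-CI (0.404) and Hml (0.346) formed the lowest group, in which each gene overlapped with its neighbour in the order. These 4 genes were above only 20.7% to 24.9% of the genes tested, but each had counts in every library. In the mutant the order of the upper 6 genes was the same, and NimC1 moved from the seventh place to the last, at 0.173, with no overlap with Hml above it. Sr-CI moved from the ninth place to the seventh, at 1.51.

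**Figure D1:**
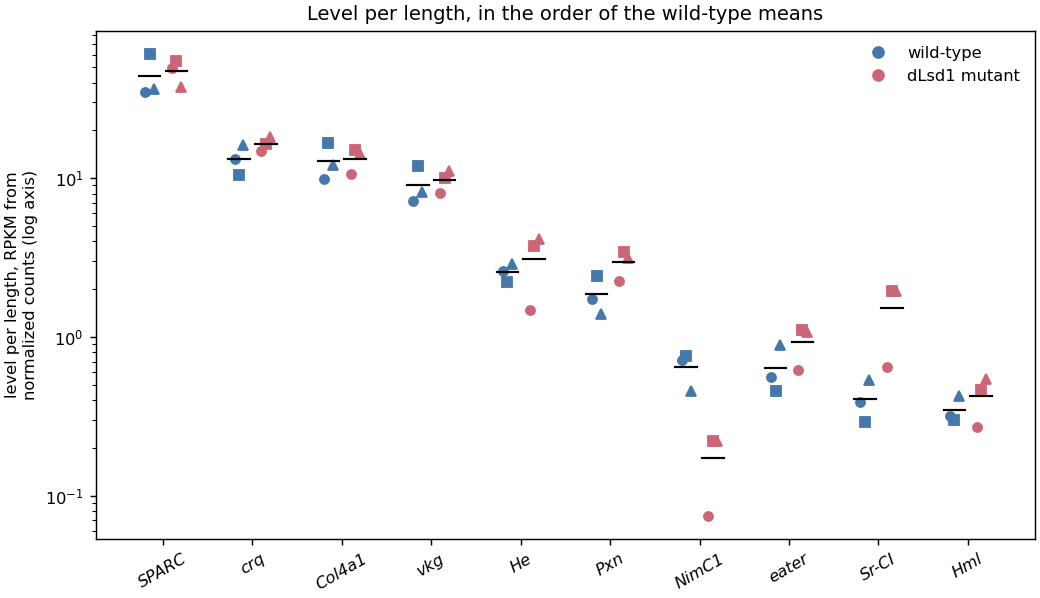
Level per length (RPKM from normalized counts, logarithmic axis) of the 10 genes in the 3 wild-type (blue) and 3 dLsd1 mutant (red) libraries, with circles, squares and triangles for replicates 1, 2 and 3 and a line at the mean of each genotype, ordered by the wild-type mean. SPARC lies above all others at 43.8 in wild-type discs, and NimC1 falls from 0.646 to 0.173, below the other 9 genes.

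Among the 7 haemocyte genes, Sr-CI rose and NimC1 fell in the dLsd1 mutant, and the other 5 did not pass the thresholds. That is 2 of 7 genes called, against the 6.55% of all genes given above. These genes and the lists below were chosen with earlier results of these data known, so such shares are descriptions. Sr-CI and NimC1 were also the only 2 of the 7 whose wild-type and mutant values did not overlap, which was the case for 25.1% of all genes. The median log2 fold change of the 7 genes was 0.31, against -0.02 over all genes, and 6 of the 7 estimates were above 0, as were 48.1% of those of all genes. In discs taken as a whole, fewer or more haemocytes and less or more RNA per haemocyte cannot be told apart.

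NimC1 encodes the Nimrod receptor that is recognised by the P1 antibody, a standard marker of plasmatocytes, and that binds bacteria for phagocytosis. The gene (FBgn0259896) lies on chromosome 2L at 13973158 to 13976769, on the minus strand of the BDGP6 assembly, whose coordinates are those of dm6. Its normalized counts were 85.4, 90.3 and 54.2 in wild-type but 8.90, 26.4 and 26.3 in mutant libraries. Every mutant library was below every wild-type library, and the wild-type mean of 76.6 ± 19.6 (SD, n = 3) stood against 20.5 ± 10.1 (SD, n = 3). The change was a 3.67-fold fall, with a log2 fold change of -1.88 (SE 0.45, 95% interval from -2.91 to -0.85, adjusted p = 0.0511, edgeR). The direction was the same when any 1 library was left out, with log2 fold changes from -2.12 to -1.52, but the adjusted p rose to 0.197 without wild-type replicate 1, to 0.103, 0.135 and 0.125 without mutant replicates 1, 2 and 3, and was 0.0986 and 0.0139 without wild-type replicates 2 and 3. The raw counts behind the mutant values were 9, 31 and 27, so each of them is imprecise.

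Sr-CI encodes a class C scavenger receptor, a pattern recognition receptor of plasmatocytes that binds bacteria. It lies on chromosome 2L at 4121702 to 4124153 on the plus strand (FBgn0014033). Its normalized counts were 30.8, 23.2 and 42.2 in wild-type and 51.4, 154.7 and 154.0 in mutant libraries. Mutant replicates 2 and 3 were well above all wild-type libraries, while mutant replicate 1 was only slightly above wild-type replicate 3. The means were 32.1 ± 9.57 and 120.04 ± 59.4 (SD, n = 3 each), a rise of 3.62-fold, with a log2 fold change of 1.86 (SE 0.46, 95% interval from 0.80 to 2.91, adjusted p = 0.0583, edgeR). With 1 library left out the log2 fold change ranged from 1.62 to 2.22, and the call was held without wild-type replicate 3 (adjusted p = 0.0282) or mutant replicate 1 (0.0141) but not without wild-type replicate 1 (0.237), wild-type replicate 2 (0.143), mutant replicate 2 (0.2375) or mutant replicate 3 (0.203). Raw counts were as low as 9 in wild-type replicate 2.

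eater, a Nimrod receptor that takes part in phagocytosis of bacteria and in the attachment of sessile haemocytes, lies on chromosome 3R at 27095867 to 27099679 on the minus strand (FBgn0243514). Its normalized counts were 66.9, 54.2 and 105.2 in wild-type and 74.2, 130.9 and 127.7 in mutant libraries. The genotypes overlapped, since wild-type replicate 3 was above mutant replicate 1. The log2 fold change was 0.53 (SE 0.33, 95% interval from -0.23 to 1.29, adjusted p = 0.429, edgeR), and without wild-type replicate 3 it was 0.85 (adjusted p = 0.0854), which passes both thresholds.

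Pxn encodes peroxidasin, a haem peroxidase secreted by haemocytes into the matrix, where it forms sulfilimine cross-links in type IV collagen. It is a long gene on chromosome 3L, at 2601455 to 2630064 on the minus strand (FBgn0011828), and small parts of its exons are shared with other genes, namely 82 bases with CG16986 on the opposite strand and 151 bases with lncRNA:CR45660 on the same strand. Its normalized counts were 374.2, 518.4 and 299.6 in wild-type and 482.5, 737.0 and 677.4 in mutant libraries, and wild-type replicate 2 was above mutant replicate 1. Pxn had means of 397 ± 111 and 632 ± 133 (SD, n = 3 each) and a log2 fold change of 0.69 (SE 0.23, 95% interval from 0.14 to 1.23), but an adjusted p of 0.167, and was not called. It was called with the replicate number as a block (adjusted p = 0.0861), with DESeq2 (0.0869) and without wild-type replicate 2 (0.0516).

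Hml, whose product haemolectin is a large clotting protein and whose promoter is the usual driver for haemocytes, lies on chromosome 3L at 13846054 to 13860001 on the plus strand (FBgn0029167). Its normalized counts were 133.8, 126.4 and 180.1 in wild-type and 114.7, 195.5 and 231.0 in mutant libraries. Mutant replicate 1 was the lowest of all 6 libraries and mutant replicate 3 the highest, so that the mutant values enclosed the wild-type ones. The log2 fold change was 0.29 (SE 0.28, adjusted p = 0.615, edgeR), and its 95% interval from -0.36 to 0.94 holds changes beyond 0.6 upwards but not downwards.

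He (Hemese), a glycosylated transmembrane protein found on the surface of all haemocyte classes, lies on chromosome 2L at 13972096 to 13972947 on the minus strand (FBgn0028430). Its normalized counts were 63.4, 54.2 and 70.1 in wild-type and 35.6, 91.0 and 100.4 in mutant libraries, with the mutant values again on both sides of the wild-type values. The log2 fold change was 0.26 (SE 0.39, 95% interval from -0.64 to 1.16, adjusted p = 0.746, edgeR). Of its exon bases, 78 (11.6%) are shared with NimB5 on the opposite strand, and the strand setting of the counting is not given in the sources used here. NimB5 itself had only 2.39 to 20.4 normalized counts per library.

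crq (croquemort), a CD36-type receptor for the uptake of apoptotic cells, was by far the most counted of the 7 genes. It lies on chromosome 2L at 448254 to 453024 on the minus strand (FBgn0015924), and it had 1356, 1078 and 1650 normalized counts in wild-type and 1532, 1678 and 1851 in mutant libraries. Mutant replicate 1 was below wild-type replicate 3, and the log2 fold change of 0.31 (SE 0.16, 95% interval from -0.07 to 0.68, adjusted p = 0.358, edgeR) did not pass. Its level per length of 13.3 was 38.3 times that of Hml in wild-type discs, and it was the only haemocyte gene in the range of the collagen genes. Of its exon bases, 448 (15.7%) are shared with ex on the opposite strand, a growth regulator with a level per length of 63.6 in wild-type discs, and without the strand setting of the counting the reads of the shared stretch cannot be assigned.

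**Figure D2:**
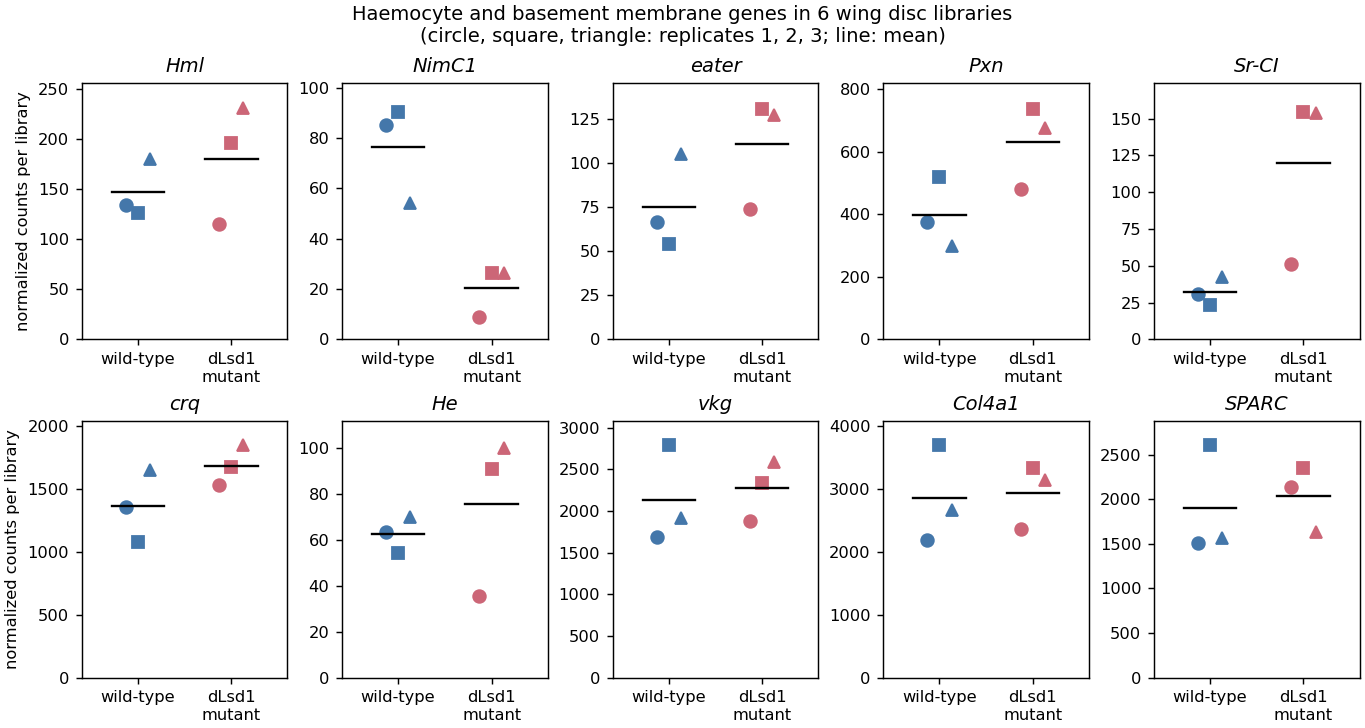
Normalized counts of each of the 10 genes in the 6 libraries, on linear axes that start at 0, with circles, squares and triangles for replicates 1, 2 and 3 of each genotype and a line at the mean of the 3 libraries. NimC1 (8.90 to 26.4 in the mutant against 54.2 to 90.3 in wild-type) and Sr-CI (51.4 to 154.7 against 23.2 to 42.2) are the only genes whose genotypes do not overlap.

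Library by library, mutant replicate 1 had the lowest mutant value for all 7 haemocyte genes. The 7 genes summed to 2111, 1945 and 2402 normalized counts in wild-type libraries and to 2299, 3013 and 3168 in mutant libraries, a ratio of the means of 1.31. Most of that sum is crq, whose exons overlap ex. In the sum mutant replicates 2 and 3 lay above every wild-type library, while mutant replicate 1 lay within the wild-type range. Over the 6 libraries Hml varied together with He (Pearson's r = 0.94, Spearman's rho = 1, n = 6) and with eater (r = 0.91, rho = 0.77, n = 6). NimC1 did not, with r = -0.16 and rho = -0.14 to Hml (n = 6). These correlations are descriptions over 6 points that share genotype, depth and dissection.

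Ratios within a library do not depend on its depth or scaling. NimC1 had 0.638, 0.714 and 0.301 counts per count of Hml in wild-type libraries and 0.0776, 0.135 and 0.114 in mutant libraries. Sr-CI had 0.230, 0.184 and 0.235 counts per count of Hml in wild-type and 0.448, 0.791 and 0.667 in mutant libraries. The genotypes did not overlap in either ratio, and the ratios moved in opposite directions.

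The other ratios overlapped between the genotypes. He stayed between 0.310 and 0.474 counts per count of Hml over all 6 libraries. eater lay between 0.429 and 0.670 and Pxn between 1.66 and 4.21. Thus in mutant libraries NimC1 was low, and Sr-CI high, relative to Hml in the same library, including mutant replicate 1, in which Hml was lowest. The ratios use the same counts as the calls above, so they are a description with no test and not separate evidence.

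**Figure D3:**
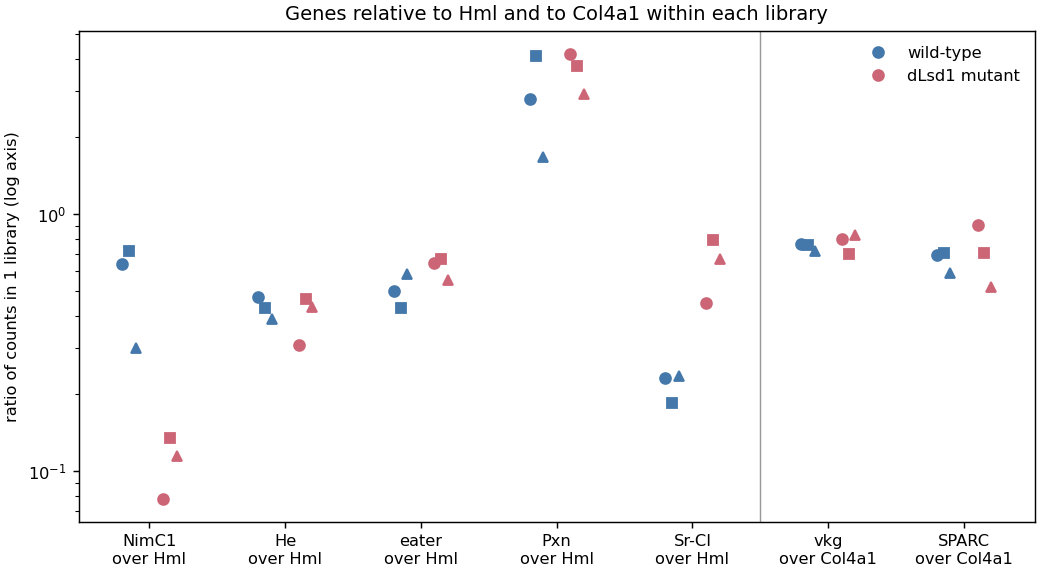
Ratio of raw counts within each library (logarithmic axis) for 5 haemocyte genes over Hml and for vkg and SPARC over Col4a1, with wild-type in blue, dLsd1 mutant in red and circles, squares and triangles for replicates 1, 2 and 3. NimC1 over Hml is 0.301 to 0.714 in wild-type and 0.0776 to 0.135 in mutant libraries, Sr-CI over Hml is 0.184 to 0.235 and 0.448 to 0.791, and the other ratios overlap.

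NimC1 and He are neighbours in the Nimrod cluster, 11 genes within 91.3 kb of chromosome 2L (13957539 to 14048863) that encode NimA, the secreted NimB proteins, the NimC receptors and Hemese. He and NimC1 are on the same strand with 210 bases between them. NimC1 fell while He, with a log2 fold change of 0.26, did not pass, and the difference between these changes was not tested. On the other side, 3356 bases away, NimC2 had 146, 235 and 24.7 normalized counts in wild-type and 100.9, 41.7 and 14.6 in mutant libraries.

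NimC2 had the only other negative estimate in the cluster (-1.33, SE 0.98, adjusted p = 0.515, edgeR), with genotypes that overlapped and a 9.50-fold range among wild-type libraries. NimB1 rose (log2 fold change 1.56, SE 0.45, adjusted p = 0.0980), from 11.8 ± 1.45 to 35.6 ± 14.6 normalized counts (SD, n = 3 each). It was not called with the replicate block (0.138) or in 4 of 6 fits with 1 library left out. Its raw counts were low, 15, 4 and 15 in wild-type and 19, 52 and 45 in mutant libraries. The gene also overlaps the end of NimB2 on the opposite strand. NimA (1.16, adjusted p = 0.134), NimB4 (1.29, 0.205) and NimB5 (adjusted p = 0.186) had higher values in every mutant library than in any wild-type library but did not pass. The same held for 13.2% of all genes, whether called or not. NimA was called without wild-type replicate 3. NimC4 had 0 counts in all 6 libraries.

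The whole list of other phagocytosis receptors held 13 genes, of which 10 had enough counts to be tested. NimB1 and Sr-CIV rose, that is 2 of 10 against the 4.32% of all genes called higher, none fell, and the median log2 fold change was 0.71. Sr-CIV, a relative of Sr-CI, had raw counts of 4, 0 and 3 in wild-type and 9, 20 and 17 in mutant libraries (5.65-fold, SE 0.68 on the log2 scale, adjusted p = 0.0807), and it was not called with the replicate block (0.129) or in 5 of 6 fits with 1 library left out. The other scavenger receptors of the class, Sr-CII and Sr-CIII, had at most 3 counts in any library. drpr (Draper), an engulfment receptor that disc and glial cells also carry, had the highest level per length of the list at 24.3 and a log2 fold change of 0.0029 (SE 0.11, 95% interval from -0.26 to 0.26).

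Transcription factors and a growth factor receptor that act in haemocyte development did not pass the thresholds in edgeR or DESeq2. In edgeR 2 of the 4 tested had an unadjusted p under 0.05, against 18.5% of all genes. Of 5 genes listed, gcm2 was too low to test. Pvr, a receptor tyrosine kinase that haemocytes need to survive and migrate and that disc epithelium also expresses, was highest per length of these at 14.1 in wild-type discs, with a log2 fold change of 0.58 (SE 0.12, adjusted p = 0.0296), just under the limit of 0.6. ush was likewise at 0.54 (SE 0.15, adjusted p = 0.0867), and both were above 0.6 without wild-type replicate 3. The GATA factor srp had 33.5 to 61.6 normalized counts in wild-type and 48.4 to 85.0 in mutant libraries, with genotypes that overlapped.

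The other haemocyte classes are crystal cells, which carry prophenoloxidase, and lamellocytes, which encapsulate parasites. Of 6 genes listed for them, with earlier results of these data known, 3 rose and none fell, against 4.32% of all genes called higher. The median log2 fold change was 1.51. The count was 0 without wild-type replicate 1 or mutant replicate 2, 1 without wild-type replicate 2, 2 without mutant replicate 3, 3 without mutant replicate 1 and 5 without wild-type replicate 3, where lz and PPO2 were added. PPO1, a prophenoloxidase of crystal cells, rose from 226 ± 74.3 to 694 ± 270 normalized counts (SD, n = 3 each; log2 fold change 1.61, SE 0.38, adjusted p = 0.0733). ItgaPS4, an integrin chain of lamellocytes, had raw counts of 6, 1 and 6 in wild-type and 16, 55 and 44 in mutant libraries (2.92, SE 0.57, adjusted p = 0.0223), and PPO3, a lamellocyte prophenoloxidase, rose as well (0.83, SE 0.22, adjusted p = 0.0730). With 1 library left out, PPO1 and PPO3 were each called in 2 of 6 fits and ItgaPS4 in 4 of 6.

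The crystal cell gene PPO2 had the highest level per length of these at 4.13 in wild-type discs, with a log2 fold change of 1.41, and passed with the replicate block, with DESeq2, and without wild-type replicate 3 or mutant replicate 1, but not otherwise (adjusted p = 0.127). The lamellocyte marker atilla did not pass (0.14, SE 0.24, 95% interval from -0.41 to 0.68), and lz, the crystal cell determinant, had raw counts of 0, 0 and 3 in wild-type against 3, 9 and 3 in mutant libraries. The summed list was at 590, 784 and 933 normalized counts in wild-type and 1316, 2531 and 1949 in mutant libraries, with replicate 1 the lowest in each genotype. The part of these other classes in the values of the 7 haemocyte genes was not tested.

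None of the 3 basement membrane genes passed the thresholds, and each had overlapping genotypes. In edgeR none of them had an unadjusted p under 0.05 (18.5% of all genes did), and DESeq2 called none. vkg and Col4a1 encode the chains of type IV collagen and lie head to head on chromosome 2L, vkg at 5012144 to 5028191 on the minus strand (FBgn0016075) and Col4a1 at 5029609 to 5037279 on the plus strand (FBgn0000299), with 1418 bases between their starts. vkg had 1682, 2793 and 1914 normalized counts in wild-type and 1883, 2337 and 2588 in mutant libraries. Its highest and lowest values were both wild-type, and the log2 fold change was 0.10 (SE 0.21, 95% interval from -0.39 to 0.58, adjusted p = 0.830, edgeR).

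Col4a1 had 2195, 3704 and 2671 normalized counts in wild-type and 2360, 3339 and 3137 in mutant libraries, again with wild-type replicate 2 the highest and wild-type replicate 1 the lowest. The log2 fold change was 0.05 (SE 0.21, 95% interval from -0.45 to 0.54, adjusted p = 0.925, edgeR). For both collagen genes the interval from all 6 libraries lay within the limit of 0.6 on either side. That rests on wild-type replicate 2, the shallowest library and the highest for both genes. Without it the estimates were 0.34 (SE 0.16) for vkg and 0.28 (SE 0.18) for Col4a1, and no interval is given for that fit.

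SPARC lies on chromosome 3R at 26869238 to 26871995 on the minus strand (FBgn0026562). It had 1515, 2608 and 1570 normalized counts in wild-type and 2138, 2355 and 1629 in mutant libraries, and wild-type replicate 2 was the highest here too. The log2 fold change was 0.11 (SE 0.24, 95% interval from -0.46 to 0.68, adjusted p = 0.833, edgeR). With 1 library left out, the estimates of vkg, Col4a1 and SPARC fell on both sides of 0, so no direction is given for them.

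**Figure D4:**
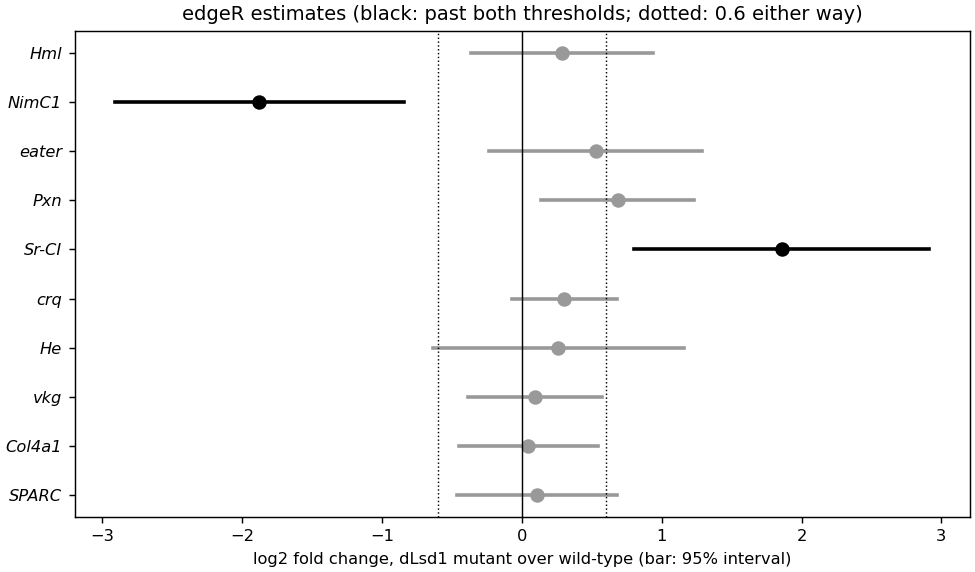
Log2 fold change, dLsd1 mutant over wild-type, of the 10 genes with 95% intervals (bars) from edgeR, black where the gene passed both thresholds and grey where it did not, with dotted lines at 0.6 on either side. NimC1 (-1.88) and Sr-CI (1.86) lie apart from 0 in opposite directions, and the intervals of vkg and Col4a1 lie within the dotted lines in this fit of all 6 libraries.

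The chains of the collagen kept close to a fixed ratio. Per exon length, vkg had 0.726, 0.715 and 0.679 of the level of Col4a1 in wild-type libraries and 0.757, 0.663 and 0.782 in mutant libraries, while the level of either gene varied by up to 1.69-fold among wild-type libraries. Their correlation over the libraries was r = 0.95 and rho = 0.94 (n = 6), and vkg was second among 8189 genes in likeness to Col4a1. SPARC followed Col4a1 less closely, with 0.690, 0.704 and 0.588 counts per count of Col4a1 in wild-type and 0.906, 0.705 and 0.519 in mutant libraries (r = 0.63, rho = 0.83, n = 6).

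The correlation of the collagen genes with Hml over the libraries was r = 0.37 for Col4a1 and 0.35 for vkg (n = 6). Among the haemocyte genes Pxn had the highest, with r = 0.61 to Col4a1 and 0.68 to vkg (n = 6). Wild-type replicate 2, in which all 3 basement membrane genes were highest, had the lowest Hml, eater, Sr-CI, crq and He among wild-type libraries, and the highest NimC1 and Pxn. It also had the highest sum of fat body markers. That sum, over 9 genes of larval serum proteins, fat body proteins and lipoproteins, was 24272, 33971 and 5266 normalized counts in wild-type and 23518, 16108 and 7632 in mutant libraries. Wild-type replicate 3, with the least, was not low in collagen, and the part of fat body RNA in these values was not tested.

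Among 9 other basement membrane genes only Mp passed, against 4.32% of all genes called higher. Mp (multiplexin) encodes the fly collagen of the type XV and XVIII family, and it rose from 860 ± 147 to 1840 ± 154 normalized counts (SD, n = 3 each; log2 fold change 1.10, SE 0.15, adjusted p = 0.00392, edgeR), a call that was held in all 6 fits with 1 library left out. The median of the list was 0.34 and 8 of 9 estimates were above 0, against 48.1% over all genes. The laminin genes LanA (0.46, adjusted p = 0.243) and LanB1 (0.34, adjusted p = 0.140) were higher in every mutant than in every wild-type library without passing. Over all genes 13.2% were higher in every mutant library, whether called or not. LanA was called without wild-type replicate 3. Papilin (Ppn) had the highest mean level per length, 85.3 in wild-type discs, but the wild-type range of LanB1 (mean 82.3) lay within its own. The log2 fold change of Ppn was -0.06 (SE 0.19, 95% interval from -0.50 to 0.38). Glt, the gene of glutactin, had an estimate of 0.77 (adjusted p = 0.184) and passed with the replicate block and with DESeq2.

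Of 7 genes tested for the maturation and remodelling of collagen, Timp, the inhibitor of matrix metalloproteinases, fell from 546 ± 75.3 to 304 ± 15.2 normalized counts (SD, n = 3 each; log2 fold change -0.84, SE 0.14, adjusted p = 0.0108, edgeR), and it was called in all 6 fits with 1 library left out. None rose, the share of all genes called lower was 2.23%, and the median of the list was -0.20. The metalloproteinase genes Mmp1 (-0.10, SE 0.24) and Mmp2 (-0.13, SE 0.20) had genotypes that overlapped. The collagen-modifying enzymes Plod (0.14, SE 0.10), highest per length at 39.8, and PH4alphaEFB (-0.20, SE 0.12) did not pass, and the lysyl oxidase gene Loxl1 (-0.66, adjusted p = 0.193) passed with the replicate block and without wild-type replicate 3.

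**Figure D5:**
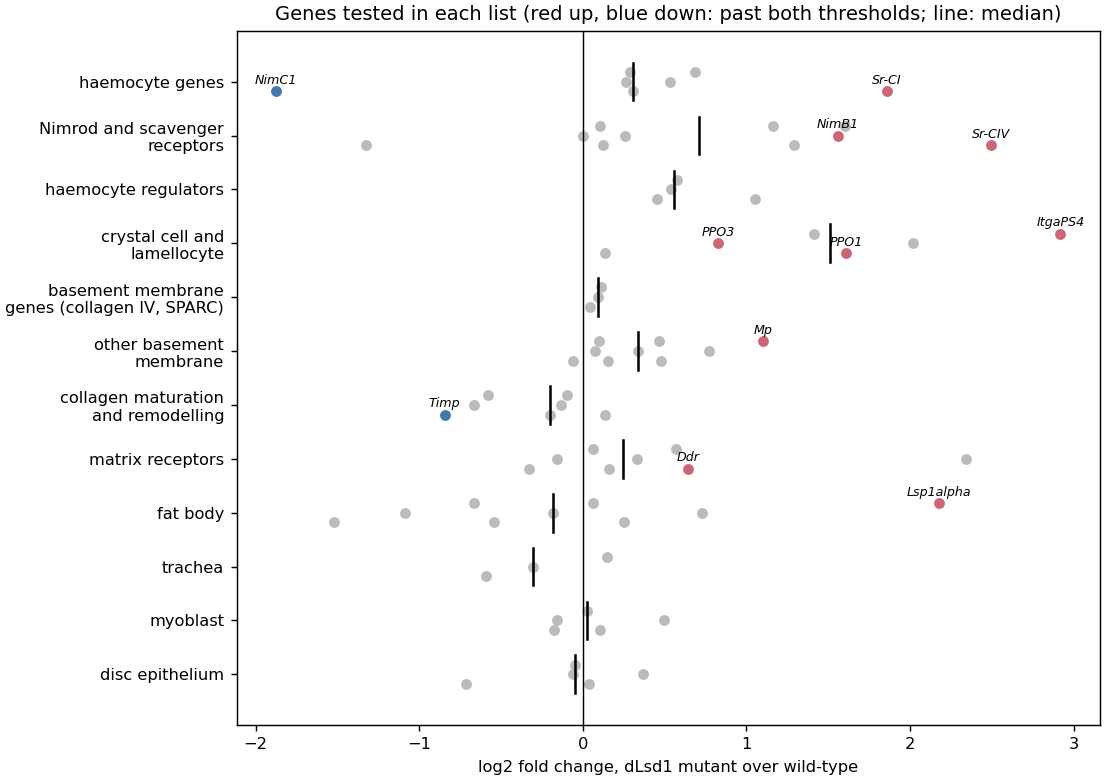
Log2 fold change, dLsd1 mutant over wild-type, of every gene tested in 12 lists (points, red where called higher, blue where called lower, grey otherwise), with a line at the median of each list. The 7 haemocyte genes have a median of 0.31, with NimC1 and Sr-CI at opposite ends, the crystal cell and lamellocyte genes one of 1.51 and the 3 basement membrane genes one of 0.10.

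The genes most like Hml and Col4a1 over the 6 libraries were ranked by Pearson's r of log2 CPM among 8189 other genes with a mean of at least 30 counts, as a description of 6 points. Those most like Hml were CG34008 (r = 0.96), CG34308 (0.96), lncRNA:CR44932 (0.95), CG31743 (0.95) and CG42709 (0.95). None of them was called, and their log2 fold changes ran from 0.08 to 0.28, beside 0.29 for Hml. He, with r = 0.94, was the most like Hml of the other haemocyte genes.

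Those most like Col4a1 were 28SrRNA-Psi:CR45859 (r = 0.96), vkg (0.95), 18SrRNA-Psi:CR41602 (0.94), Ets21C (0.93) and CG5281 (0.93), again with none called. Ets21C encodes an ETS transcription factor, and it had 43.8 normalized counts in wild-type replicate 2 against 22.9 and 24.7 in the other wild-type libraries. Pseudogenes of ribosomal RNA share sequence with the ribosomal RNA copies, so their counts are uncertain. 28SrRNA-Psi:CR45859 had 103.2 normalized counts in wild-type replicate 2, where Col4a1 was highest, and 29.1 in wild-type replicate 1, where Col4a1 was lowest, and the part of ribosomal RNA content in the collagen values was not tested.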

How the data were processed

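RNA was measured by RNA-seq in 6 wing disc libraries, 3 wild-type and 3 dLsd1 mutant, grouped by the labels. The authors trimmed reads with Trimmomatic 0.36, aligned them with STAR 2.5.2a to dm6 and removed duplicates with Picard. They deposited raw counts per gene and TE family, 1 table per library in TEToolkit format, without normalization; handling of multiple matches and strand is not given in the sources used here. Symbols were matched by FlyBase identifier to the BDGP6 annotation, release 115, for 17249 of 17471 genes; trol, Tango1, AdamTS-A, scb, btl and wg were not analysed here.

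Counts of 10841 genes and 150 TE families with at least 10 summed counts were tested with edgeR 4.0.16 (R 4.3.3; TMM, robust quasi-likelihood F-test, Benjamini-Hochberg adjustment). The test was also run on simulated data with the same spread for every gene and changes set only in well-counted genes. That run does not cover counts as low as those of NimC1 and Sr-CI. Thresholds were those of the study. Standard errors are the log2 fold change over the square root of F. Alternatives were DESeq2 1.42.0, TMM from genes only, upper-quartile factors, filters, stricter thresholds, a replicate block and each library left out. Tables and plots used pandas 2.3.3 and matplotlib 3.10.9.

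The members and lists were chosen with earlier results of these data known. The text names all 10 members and the 5 genes most like Hml and Col4a1. Of each other list it names every called gene and the gene with the highest mean level per length in wild-type. The wild-type range of that gene can overlap that of the next. Other list genes were picked after their values were seen. Replicate libraries differed beyond sampling noise (chi-square per degree of freedom 33.5 to 239.7). Samples with the same replicate number deviated together from their group means over 8190 genes (r = 0.39, 0.18 and 0.43 for replicates 1, 2 and 3), so the numbers were taken to pair the samples on the data alone, as the labels name no shared batch. Wild-type replicate 2 correlated more with mutant replicate 1 (r = 0.32).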

Additional observations from a re-analysis of the deposited data

How the results depend on the processing

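NimC1 and Sr-CI kept their direction and call under all 6 alternatives that used every library with the same thresholds, with adjusted p-values from 0.00175 to 0.0651 and from 0.00258 to 0.0654. At the stricter thresholds (log2 fold change 1, adjusted p 0.05) the haemocyte genes called fell from 2 to 0, and all genes called from 710 to 391. With 1 library left out, 0 to 3 haemocyte genes and 373 to 1588 of all genes were called, lowest without mutant replicate 2 and highest without wild-type replicate 3. With the replicate block, 3 haemocyte genes (Pxn added) and 759 of all genes were called, and no other call among the 10 genes changed; of the other lists the block removed NimB1 and Sr-CIV and added PPO2, Glt, Loxl1, Dg, Lsp1beta and Fbp2. The basement membrane genes gave 0 calls in every fit, DESeq2 included (0 of 3 with an unadjusted p under 0.05 in edgeR). Their estimates changed sign when 1 library was left out, from -0.051 to 0.34 for vkg (-0.01 without mutant replicate 3), from -0.11 to 0.28 for Col4a1 and from -0.035 to 0.40 for SPARC. Of the called genes of other lists, tried under the same alternatives after seeing the data, Mp and Timp kept their call in every fit at the main thresholds, and PPO1 missed it without the count filter (adjusted p = 0.118). Depth limits NimC1 and Sr-CI, with raw counts as low as 9, and genes of the other lists with fewer, such as Sr-CIV and ItgaPS4. Leaving out a library also lowers the number of samples, and what else lay behind the lost calls was not tested.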

Other observations

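Among 8 receptors for the matrix and their adaptors, Ddr, a homologue of the collagen-binding discoidin domain receptors, rose (log2 fold change 0.64, SE 0.17, adjusted p = 0.0730), against 4.32% of all genes called higher. It was called in 1 of 6 fits with 1 library left out. The integrin beta chain mys had the highest level per length, 53.1 in wild-type discs, and a log2 fold change of 0.33 (SE 0.15, adjusted p = 0.285). The median of the list was 0.25, and without wild-type replicate 3 Itgbn and Dg were called higher as well. Of the 8 estimates 2 were below 0, with the integrin alpha chain gene if at -0.33 (SE 0.10, adjusted p = 0.121, edgeR). This gene was lower in every mutant than in every wild-type library, as were 11.9% of all genes.

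Of the 9 fat body markers Lsp1alpha rose (log2 fold change 2.17, SE 0.51, adjusted p = 0.0535) and none fell. That is 1 of 9, against 4.32% of all genes called higher. Of the estimates 4 were above 0 and 5 below, with a median of -0.18. The call of Lsp1alpha was lost in 4 of 6 fits with 1 library left out. Fbp1 had the highest mean level per length of them, 64.4 in wild-type discs, beside 63.9 for Lsp2. It ranged from 1009 to 14307 normalized counts over the 6 libraries, with genotypes that overlapped. Markers of other tissues of the dissected disc were measured beside these genes. Of 3 tracheal genes tested none was called by edgeR or DESeq2, with 1 at an unadjusted p under 0.05 in edgeR, against 18.5% of all genes. verm, a chitin deacetylase of the tracheal lumen, was the highest per length at 190.2 in wild-type discs, against 94.1 for serp, its relative, and 13.8 for trh. Both verm and serp were lower in every mutant than in every wild-type library, as were 11.9% of all genes. The log2 fold change of serp was -0.59 (SE 0.12, adjusted p = 0.0250, edgeR), just inside the limit of 0.6. Which tissue gave the RNA of verm and serp was not tested. serp was called lower without wild-type replicate 2 and without mutant replicate 1. The 5 markers of adult muscle precursors, of which twi was highest per length at 15.9, and the 5 of the disc epithelium, of which ap was highest at 66.5, held no gene called by edgeR or DESeq2 and none at an unadjusted p under 0.05 in edgeR, and had medians of 0.02 and -0.05. Without wild-type replicate 3, Mef2 of the first list and ap of the second were called higher. The part of these tissues in the values of the 10 genes was not tested.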
